A study of Homo sapiens with 6 samples.

Results

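The 10 genes that encode the subunits of the SF3A and SF3B complexes were examined for peaks of an RNA immunoprecipitation (RIP) experiment, in which RNA held by a protein is recovered and sequenced. They are SF3A1, SF3A2 and SF3A3 of SF3A and SF3B1, SF3B2, SF3B3, SF3B4, SF3B5, SF3B6 and PHF5A of SF3B, chosen by name out of 20037 protein-coding genes. Every peak was taken whose summit, the highest point of the peak, lay in the gene's annotated span on build GRCh38. This gave 34, 59 and 28 peaks in replicates 1, 2 and 3, out of 30111, 160931 and 65097 peaks in the lists, or 121 of 256139 in all.

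The RNA came from HEK293T, an established human embryonic kidney line. Per the labels, 3 samples overexpressed SNRPD2 (genotype SNRPD2OE), the gene of the Sm protein SmD2, and 3 were controls (Ctrl). The labels name no construct, promoter or antibody. A peak list was analysed for each SNRPD2OE sample, and the Ctrl samples were not analysed here. Each value below therefore describes SNRPD2OE cells with no Ctrl list beside it. Nothing in the labels ties the replicates to separate cultures, and their spread may be technical.

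SF3A and SF3B are the protein complexes that join the U2 small nuclear RNA and its Sm ring, of which SmD2 is a part, to make the mature U2 particle. This particle pairs with the branch point of an intron at the start of splicing, and SF3B clamps the branch adenosine in a pocket between SF3B1 and PHF5A. The peaks described here concern the transcripts of the genes and do not measure the proteins.

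The lists differed in kind. Replicate 3 held 49284 peaks wider than 1000 bp, or 75.7%, against 2 in replicate 1 and 0 in replicate 2, and the median widths were 77, 40 and 12210 bp in replicates 1, 2 and 3. Within the 10 genes the lists were more alike, with median widths of 92, 102 and 66 bp and a single peak over 1000 bp, of 1024 bp with 1 read, in SF3B1 in replicate 3. No further wide peak reached into the 10 spans. The number of reads at a summit, recovered from the deposited fold and −log10 p, is used below as the depth behind a peak. Reads may include copies made during amplification.

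At the 5′ ends of SF3A1 and SF3A3, peaks ran into the first 50 bases after the annotated start. The SF3A1 peaks also lie in the overlapping gene CCDC157, and without strand they cannot be assigned to either gene. SF3A1 and SF3A3 are shown because only their peaks reached the RefSeq promoter windows (GRCh38.p14), which were given for 8 of the 10 genes. Both genes are on the minus strand. Each line gives bases 21 to 50 counted from 1 at the annotated start, 5′ to 3′, at chr22:30356845-30356874 for SF3A1 and chr1:37989973-37990002 for SF3A3. Capitals mark the 17 bases of SF3A1 covered by the peaks of both replicates 2 and 3, and the 29 bases of SF3A3 covered by a peak of replicate 3. The replicate 3 peak of SF3A1 covers the whole line and begins further upstream, at base 6.
SF3A1: tactgaccgagcgGGGAGGCTGTCTTGAGG
SF3A3: tTGGTGGTCTGAATTGAGAAGCCGCGACTA

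The pseudouridine synthase PUS7, whose knockout belongs to the wider study, prefers TGTAA and TGTAG among its sites (written as DNA, sense strand only). Neither stretch held either string, and 713 of 27305 windows of the same 30 bases (2.61%) held at least 1. A string that is absent from 30 bases says nothing of the rest of the peak.

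Of the 10 genes, 6, 7 and 7 had a summit in replicates 1, 2 and 3, where 45.3%, 76.7% and 65.5% of all protein-coding genes had one. SF3A3, SF3B1, SF3B2 and SF3B3 had a summit in all 3 lists, 4 of 10 genes beside 38.5% of protein-coding genes. SF3A1, SF3A2 and PHF5A had a summit in 2 lists each, SF3B4 and SF3B6 in 1, and SF3B5 in none. That makes 9 of 10 genes with a summit in at least 1 list, beside 81.9%. By presence alone the subunit genes were therefore close to the protein-coding genes as a whole. Adding 1 kb at each end of the spans brought in 4 further summits. Of these, 3 lay between 596 and 920 bp outside SF3A2, which then had a summit in all 3 lists, and 1 lay 487 bp outside PHF5A.

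Summits in the subunit genes held more reads than the typical summit of the lists. A summit with at least 10 reads was found in 6, 7 and 6 of the 10 genes in replicates 1, 2 and 3, beside 14.2%, 15.9% and 13.4% of protein-coding genes. The 6 of replicate 1 include PHF5A, whose peak there can be solved as 7 or as 11 reads, and without it 5 genes had such a summit. In at least 1 list, 9 of 10 genes had such a summit, beside 22% of protein-coding genes. So had 15 of 16 other U2 genes, which are compared below. The median number of reads at a summit was 18.5, 17 and 19 in the 10 genes, beside 5, 1 and 2 over all summits in protein-coding genes. The caller's background at these summits was also deep, with medians of 5.84, 7.22 and 2.46 reads in the 10 genes, beside 0.195, 0.0722 and 0.0316 reads over all coding summits. Transcript levels were not used here, so their part in these depths was not tested. The fold is the scaled pileup plus 1 over the background plus 1, as the caller reports it. A read was solved as 0.599, 1 and 0.254 units of pileup in replicates 1, 2 and 3. Folds and q are therefore read within a list and not compared between lists. Its median was 2.62, 2.16 and 3.08 in the 10 genes, beside 2.74, 1.94 and 1.495 over all coding summits. In replicate 1 the subunit summits thus had more reads but not a higher median fold than coding summits at large. This rested on SF3B3, which held 23 of the 34 summits of replicate 1. Without SF3B3 the median fold there was 3.02, with medians of 12 reads and a background of 3.34. In replicates 2 and 3 the medians without SF3B3 were 17 and 19 reads and folds of 2.31 and 3.29.

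**Figure D1:**
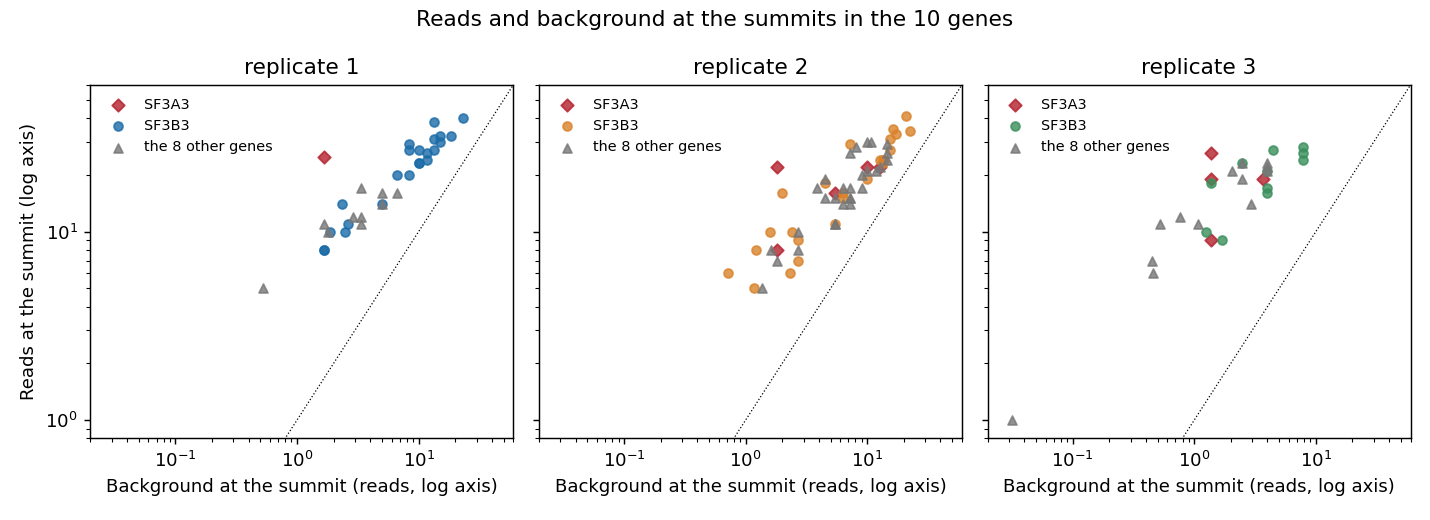
Reads at the summit (vertical, log axis) against the caller's background in reads (horizontal, log axis) for every summit in the 10 genes, in a panel per replicate; the dotted line marks equality, and the PHF5A peak of replicate 1 is drawn at 11 of its possible 7 or 11 reads. The SF3A3 peak of each list, with 22 to 26 reads over 1.38 to 1.81, lies farther above the line than the SF3B3 peaks of like depth.

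Most summits were concentrated in few of the genes. SF3B3 held 59 of the 121 summits (48.8%), SF3B1 held 16, SF3B2 15, SF3A1 14, SF3A3 10, SF3A2 3, PHF5A 2, SF3B4 1 and SF3B6 1. The mean number per list over the 10 genes was 40.3 ± 16.4 (SD, n = 3 lists). SF3B3 is the longest span at 53.9 kb and SF3B5 the shortest at 0.690 kb, so counts are also given per kb of span. The median over the 10 genes was 0.0262, 0.133 and 0.114 summits per kb in replicates 1, 2 and 3, beside 0, 0.106 and 0.0315 over all protein-coding genes.

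**Figure D2:**
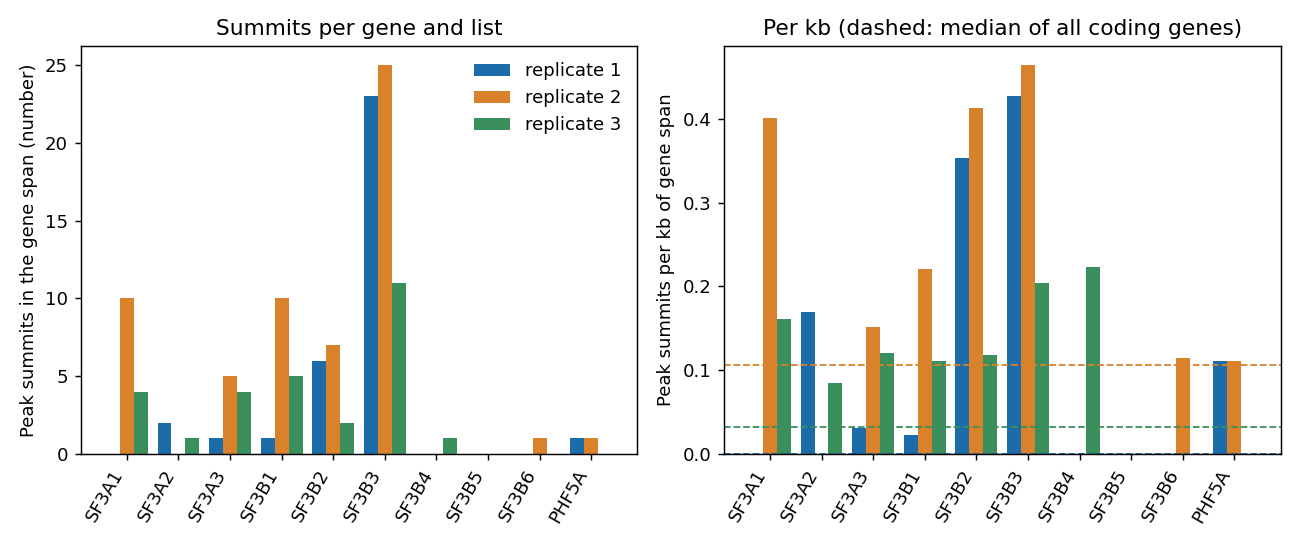
Number of summits in each gene span (left) and number per kb of span (right) in replicates 1, 2 and 3; dashed lines mark the median over all protein-coding genes in each list, which is 0 in replicate 1. SF3B3 stands highest in number in every list, with 23, 25 and 11 summits.

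Peak strength was ranked by −log10 p within each list. Among the SF3A genes, SF3A3 carried the strongest peak of all 10 genes in every list. SF3A3, whose protein holds the SF3A trimer onto U2, lies on chromosome 1 from 37956975 to 37990022. Its main peak spanned 37989024 to 37989166 in replicate 1, 37989020 to 37989165 in replicate 2 and 37989027 to 37989151 in replicate 3. The summits lay at 37989054, 37989058 and 37989054, within 4 bp of each other, and 968, 964 and 968 bp downstream of the annotated start. All 3 lists thus put their best SF3A3 peak on the same bases.

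At this site 25, 22 and 26 reads stood over backgrounds of 1.67, 1.81 and 1.38 reads in replicates 1, 2 and 3. The folds were 7.99, 8.20 and 5.62, each the highest in its list among the summits of the 10 genes. Replicate 3 had the most reads over the lowest background, but a read is scaled lowest in that list, so the folds are not comparable. The −log10 q was 6.28, 10.7 and 1.89, and by −log10 p the peak ranked 89 of 30111, 33 of 160931 and 938 of 65097. A summit at a q under 0.05 was found in 1, 6 and 1 of the 10 genes in replicates 1, 2 and 3, beside 5.21%, 18.3% and 4.01% of protein-coding genes. The 6 of replicate 2 were SF3A1, SF3A3, SF3B1, SF3B2, SF3B3 and PHF5A. SF3A3 was the only one of the 10 genes with a summit at a q under 0.05 in all 3 lists, which 0.679% of protein-coding genes had. Exons and introns were not used here, and no other annotated gene overlaps the SF3A3 span.

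**Figure D3:**
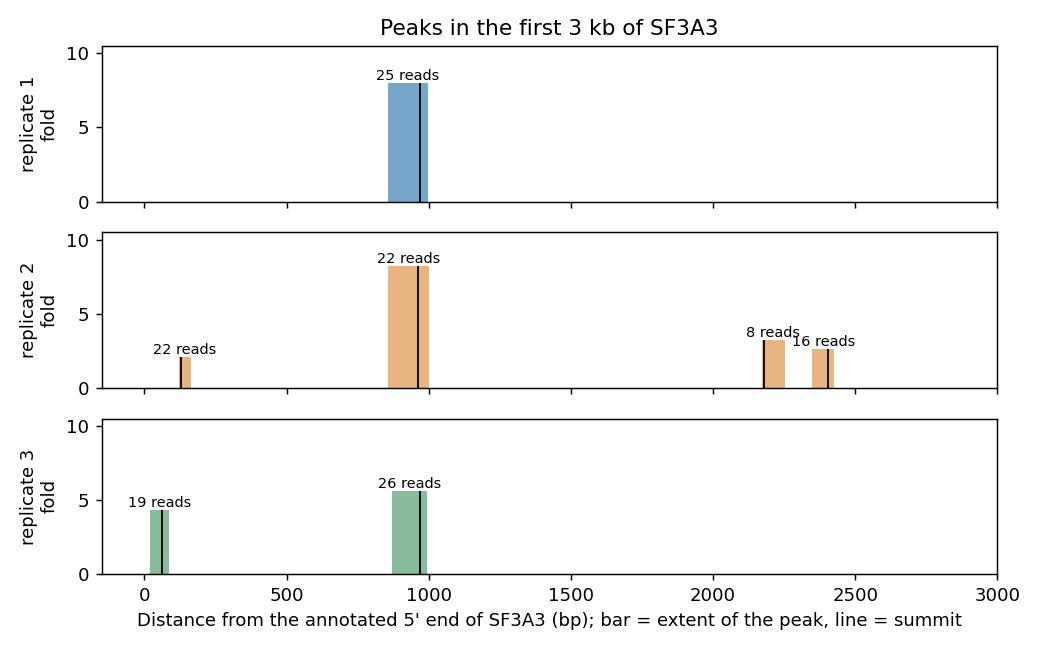
Peaks in the first 3 kb of SF3A3, by distance in bp from the annotated 5′ end (horizontal) and by the authors' fold (vertical), in a panel per replicate; bars span the peaks, lines mark the summits and labels give the reads. The peak with its summit 964 to 968 bp from the start is the only one present in all 3 panels.

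The other SF3A3 peaks were weaker and were not shared. In replicate 2 a summit lay 129 bp from the start, with 22 reads and a fold of 2.10, and in replicate 3 one lay 61 bp from the start, with 19 reads and a fold of 4.31. These peaks do not overlap. Replicate 3 also had summits 82 and 1204 bp from the 3′ end, with 9 and 19 reads, and replicate 2 had none in the last 12697 bp. Replicate 1 listed only the main peak.

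SF3A1, which also contacts the U1 particle, had 0, 10 and 4 summits in replicates 1, 2 and 3. Replicate 1 therefore lacked any peak in a 24.9 kb span where the other lists had several. The peak at its start had its summit 54 bp from the annotated start in replicate 2 and 62 bp in replicate 3. Its reads were 28 over a background of 8.13 in replicate 2 and 21 over 3.94 in replicate 3, with folds of 3.18 and 3.16. This peak at the start had a −log10 q of 0 in replicate 3. It was the strongest SF3A1 peak of replicate 2 (−log10 q of 2.99), whereas in replicate 3 the strongest lay 11880 bp from the start with 12 reads and a fold of 3.38. That replicate 3 peak met a weaker peak of replicate 2, with its summit 11874 bp from the start, 14 reads and a fold of 1.82. In all, replicates 2 and 3 shared 3 SF3A1 sites. Both summits at the start also lie in CCDC157, which overlaps this end from 30356624 on chromosome 22, and without strand they cannot be assigned to either gene. They are the only summits in the 10 genes that lie in another annotated gene as well.

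SF3A2, the third SF3A subunit, had summits in replicates 1 and 3 and none in replicate 2. In replicate 1 these had 5 and 12 reads, with folds of 3.05 and 2.73, and in replicate 3 the summit had 7 reads and a fold of 2.49. No 2 of the 3 peaks overlapped. Each had a −log10 q of 0.

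Among the SF3B genes, SF3B3 had the most peaks and the widest spread of them. SF3B3 encodes a protein of β-propellers that forms the frame of the complex. It lies on chromosome 16 from 70523816 to 70577668. Its density of 0.427, 0.464 and 0.204 summits per kb was higher than that of 98.1%, 92.8% and 94.0% of protein-coding genes in replicates 1, 2 and 3. The strand of SF3B3 was not given in the tables used, so positions are counted from the low-coordinate end. In the last 25% of the span lay 13 of 23, 11 of 25 and 5 of 11 summits. The reads at its summits ran from 8 to 40 with a median of 24 in replicate 1, from 5 to 41 with a median of 18 in replicate 2, and from 9 to 28 with a median of 21 in replicate 3. Background was high along the gene, with medians of 10.01, 6.32 and 3.94 reads. Folds ran from 1.67 to 3.91, 1.48 to 5.69 and 2.30 to 4.21 in replicates 1, 2 and 3. The −log10 q was 0 for 19, 14 and 11 of the summits.

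**Figure D4:**
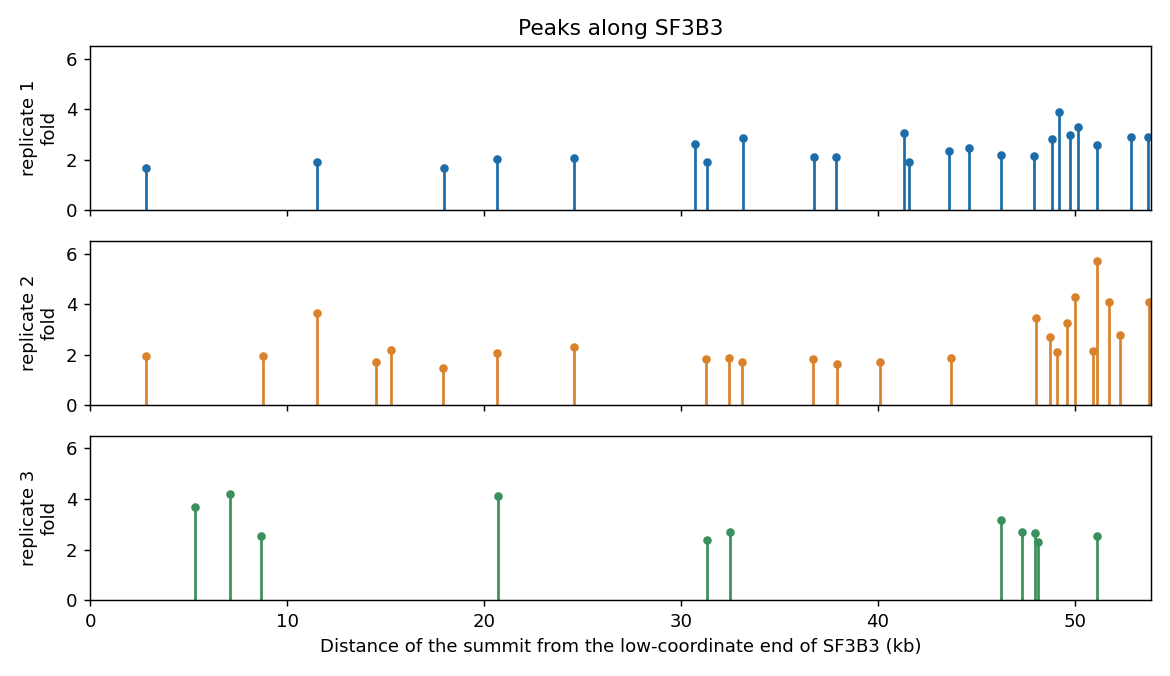
Summits along SF3B3 by distance in kb from the low-coordinate end (horizontal) and the authors' fold (vertical), in a panel per replicate. Replicate 2 reaches a fold of 5.69 near the high-coordinate end, where all 3 panels hold summits close together.

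Peaks of all 3 lists met at 4 places in SF3B3. These segments lay from 70544517 to 70544555, from 70555103 to 70555222, from 70571772 to 70571874 and from 70574954 to 70575010. The last had summits within 5 bp of each other, at 70574956, 70574951 and 70574955, with 20, 16 and 16 reads and folds of 2.60, 5.69 and 2.53 in replicates 1, 2 and 3. At the other 3 segments the summits lay 59 to 65 bp apart. The strongest SF3B3 peak of replicate 2 was the last of these segments, with a −log10 q of 4.81, where replicates 1 and 3 had 0. The strongest of replicate 1, from 70565061 to 70565180 with 29 reads, met no peak of another list. That of replicate 3, from 70544517 to 70544555 with 18 reads, lay in the first segment.

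SF3B1, the scaffold of SF3B and a gene often mutated in myeloid neoplasms, had 1, 10 and 5 summits over 45.3 kb. Replicates 1 and 2 shared a peak with the same summit, 197392392 on chromosome 2, which is 2608 bp from the 3′ end. It had 12 reads and a fold of 3.02 in replicate 1, and 15 reads and a fold of 2.49 in replicate 2. The −log10 q was 0 and 0.165 there. Replicates 2 and 3 shared a different site, from 197409881 to 197409931 near the middle of the gene. There replicate 2 had its strongest SF3B1 peak, with 30 reads, a fold of 2.84 and a −log10 q of 2.47. At that site replicate 3 had 23 reads, a fold of 4.21 and a −log10 q of 0. The strongest SF3B1 peak of replicate 3 was another, from 197405374 to 197405416, with 21 reads, a fold of 4.16 and a −log10 q of 0.196, and it met no peak of the other lists. No SF3B1 site was in all 3 lists. The nested small nucleolar RNA gene LOC124900524 held no summit.

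SF3B2, the partner of SF3B4 that reaches from the SF3B core, had 6, 7 and 2 summits over 16.9 kb. A peak near the 3′ end was shared by replicates 1 and 2, with summits 512 and 514 bp from that end, 17 and 15 reads and folds of 3.73 and 2.90. It was the strongest SF3B2 peak of replicate 1, with a −log10 q of 0.539 there and 0.829 in replicate 2. Replicates 2 and 3 shared a site from 66055079 to 66055125 on chromosome 11, with summits 2743 and 2753 bp from the start, 26 and 23 reads and folds of 3.28 and 3.42. That site was the strongest SF3B2 peak in both of these lists, with a −log10 q of 2.93 in replicate 2 and 0 in replicate 3. Which site led thus depended on the list.

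The remaining SF3B genes are short and had few peaks. SF3B4, an RNA-binding subunit, had a summit only in replicate 3, 562 bp from its start, with 22 reads and a fold of 3.29. SF3B6 had a summit only in replicate 2, 207 bp from its 3′ end, with 15 reads and a fold of 1.95. PHF5A, a zinc-finger protein that lines the branch pocket, had a summit in replicate 1 with a fold of 2.53 and another in replicate 2, from 41460200 to 41460290 on chromosome 22, with 17 reads, a fold of 3.70 and a −log10 q of 2.26. The PHF5A peaks lay toward opposite ends of the span and did not overlap. SF3B5, which encodes a very small subunit from a span of 690 bp, had no summit in the listed peaks.

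**Figure D5:**
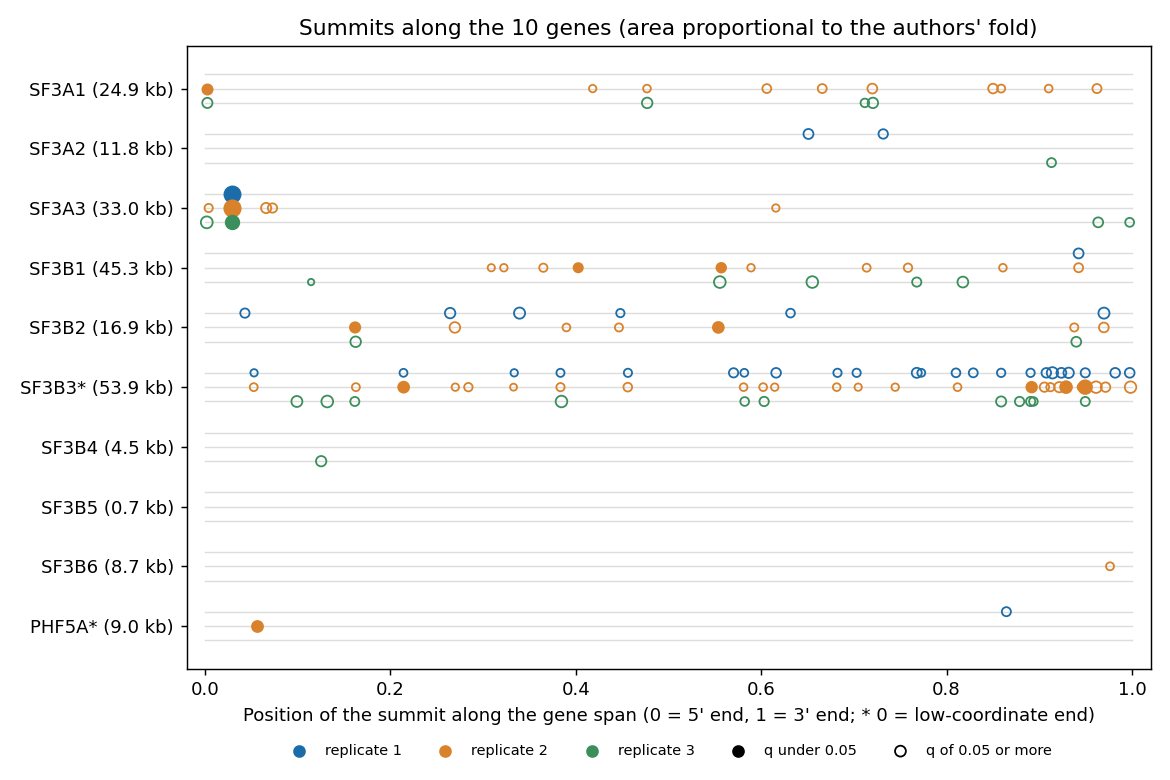
Position of each summit along the span of each gene (horizontal, 0 at the annotated 5′ end and 1 at the 3′ end; for SF3B3 and PHF5A, marked with an asterisk, 0 is the low-coordinate end), with a line per replicate and circle area proportional to the fold; filled circles have a q under 0.05. The 3 filled circles near the start of SF3A3 are the only site filled in all 3 lists.

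Along the 8 genes with a known strand, summits were spread over the whole span. The median position, on a scale of 0 at the 5′ end to 1 at the 3′ end, was 0.540, 0.557 and 0.655 in replicates 1, 2 and 3 (mean 0.584 ± 0.0622, SD, n = 3 lists), beside 0.622, 0.575 and 0.518 over all coding summits with a strand. The first 10% of the span held 2 of 10, 5 of 33 and 3 of 17 summits, beside 14.2%, 12.6% and 14.6% of coding summits. The last 10% held 2 of 10, 6 of 33 and 4 of 17, beside 19.1%, 17.5% and 13.9%. With at least 10 reads the mean median position was 0.520.

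Agreement of the lists was judged by overlap of at least 1 bp. Of the replicate 1 peaks in the 10 genes, 18 of 34 (52.9%, 95% Wilson interval 36.7% to 68.5%) met a peak of replicate 2, beside 35.0% of all replicate 1 peaks in protein-coding genes. Among peaks with at least 10 reads these shares were 54.8% and 47.8%. The share in the 10 genes rested on SF3B3, without which 4 of 11 peaks (36.4%) met replicate 2. Of the replicate 2 peaks, 18 of 59 (30.5%, interval 20.3% to 43.1%) met replicate 1, beside 8.31% of coding peaks and, with at least 10 reads, 33.3% beside 34.8%. Overlap with replicate 3 was lower than over coding peaks at large: 17.6% beside 29.2% for replicate 1 and 22.0% beside 47.2% for replicate 2. Against only the replicate 3 peaks of at most 1000 bp the shares were 17.6% beside 14.5% and 22.0% beside 4.47%. These coding peaks were mostly shallower than those of the 10 genes. Among peaks with at least 10 reads, against all replicate 3 peaks, the shares were 19.4% beside 35.9% and 27.1% beside 33.8%. Of the replicate 3 peaks in the 10 genes, 6 of 28 (21.4%) met replicate 1 and 14 of 28 (50%) met replicate 2, beside 16.5% and 57.7% of coding peaks. With at least 10 reads these shares were 26.1% and 56.5%, beside 37.2% and 48.1%. The intervals cover counting error only, and peaks of a gene are not independent.

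Joining peaks of at most 1000 bp that overlapped gave 87 sites in the 10 genes, of which 60 were in 1 list, 22 in 2 and 5 in all 3. The 5 were the SF3A3 site and the 4 SF3B3 segments. Of the 22, replicates 1 and 2 alone shared 13, replicates 2 and 3 alone shared 8, and replicates 1 and 3 alone shared 1. A segment of at least 20 bp covered by all 3 lists was thus found in 2 of 10 genes, beside 10.8% of protein-coding genes, or 5.97% with peaks of at most 1000 bp. Without replicate 1, 5 genes had a segment covered by both remaining lists, beside 56.2%, and without replicate 3, 4 genes did, beside 24.6%. SF3A1, SF3B1 and SF3B2 joined in the first case, and SF3B1 and SF3B2 in the second. Without replicate 2, SF3A3 and SF3B3 alone had such a segment, 2 of 10 genes beside 23.8%. The shares of 56.2% and 23.8% include segments under replicate 3 peaks wider than 1000 bp. Shares for narrower peaks are not given for these pairs.

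The subunit genes were set beside a list of 16 other genes of U2 function, made up of further U2 proteins, factors that bind the branch point or polypyrimidine tract, and helicases. A summit in all 3 lists was found in 4 of the 10 SF3A and SF3B genes and in 13 of the 16 others. A summit with at least 10 reads was found in 11, 15 and 12 of the 16 in replicates 1, 2 and 3. In the SF3A and SF3B genes it was found in 6, 7 and 6 of the 10, so depth was not particular to them. A segment covered by all 3 lists was found in 2 of the 10 and in 6 of the 16, which were DDX42, HTATSF1, PUF60, RBM17, SF1 and U2AF2. The median density was 0.0262, 0.133 and 0.114 summits per kb in the SF3A and SF3B genes in replicates 1, 2 and 3, against 0.0987, 0.176 and 0.141 in the others. The median span was 14.4 kb in the SF3A and SF3B genes and 17.4 kb in the others. A summit at a q under 0.05 in all 3 lists was found in SF3A3 and in 0 of the 16 others. List by list, 1, 6 and 3 of the 16 had such a summit in replicates 1, 2 and 3, beside 1, 6 and 1 of the 10. DDX42, a helicase bound to SF3B, had folds of 5.62, 6.39 and 2.87 at its strongest peaks, with 11, 7 and 8 reads. Their −log10 q was 1.90, 4.17 and 0.0756. RBM17 had folds of 4.55, 5.78 and 3.86 at its strongest peaks, with 8, 10 and 12 reads. Their −log10 q was 0.494, 3.38 and 1.79. U2AF2, which binds the polypyrimidine tract, had folds of 2.80, 2.96 and 5.29 at its strongest peaks, with 31, 18 and 21 reads. These comparisons are descriptions of the lists and were not tested.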

How the data were processed

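RIP-seq peak lists of 3 SNRPD2OE samples of HEK293T cells were used, and the 3 Ctrl samples were not analysed here. Per the submitters' processing notes, reads were handled with cutadapt 4.2, STAR 2.7.10b and MACS2 2.2.9.1 on GRCh38. The caller's options, its background library and how duplicates were treated are stated neither in the labels nor in the files. The labels' protocols describe total RNA and a stranded kit, and do not describe the immunoprecipitation. The peaks carry no strand. Each deposited list, called per sample, gives a peak's extent, its summit, a score, a fold enrichment (a ratio of pileup to background), −log10 p and −log10 q. The deposited score is 10 times the deposited −log10 p without decimals, and a −log10 q of 1.3 stands for a q of 0.05.

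Peaks were assigned by summit to RefSeq gene spans (GRCh38.p14), with strand from the RefSeq promoter table. Reads at a summit were solved from the deposited fold and −log10 p under the caller's Poisson model, within 0.0005 of −log10 p. In 3 simulated lists the number was recovered for 99.98%, 100% and 99.96% of peaks. These lists were not the replicates. Their peaks mostly had fewer reads and lower backgrounds than the summits of the 10 genes, so the recovery at such depths was not measured. More than 1 number of reads met the tolerance for 1278, 35 and 977 peaks of replicates 1, 2 and 3. For the PHF5A peak of replicate 1 both 7 and 11 reads met the tolerance, and the closer match, 11, entered the counts and medians. Leaving this peak out gave a median of 20 reads at the summits of replicate 1.

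The members, the list of other U2 genes and the alternatives were chosen with earlier results of these data known. All 10 members are named, each with its peak of highest −log10 p in each list and every segment of at least 20 bp covered by all 3 lists, and other U2 genes are named where they hold such a segment. No test was run, since 1 condition was analysed. Alternatives were a q under 0.05, at least 10 reads, peaks of at most 1000 bp, lists of equal length, assignment by any overlap, 1 kb flanks, summits in other genes left out, segments of 100 bp, 50% reciprocal overlap and each replicate left out. Python 3.11.15, numpy 2.4.6, pandas 2.3.3, scipy 1.17.1 and matplotlib 3.10.9 were used.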

Additional observations from a re-analysis of the deposited data

How the results depend on the processing

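The deposited q was the choice that moved the values most. With only peaks at a q under 0.05, a summit in all 3 lists was left in 1 gene (SF3A3) instead of 4, the mean number of summits was 4.33 instead of 40.3, and 1 gene instead of 2 held a segment covered by all 3 lists. The median position was then 0.114 instead of 0.584, the overlap of replicate 1 with replicate 2 was 100% (1 of 1 peak), and 8 of 20 strongest peaks remained. That position rests mostly on the SF3A3 site, the only summit left in replicates 1 and 3, at 0.0293 in both. With at least 10 reads the median position was 0.520. The overlap was 32.4% instead of 52.9% both in lists of equal length and with 50% reciprocal overlap. Leaving out each replicate in turn gave 5 to 5 genes with a summit in all remaining lists, 31.0 to 46.5 mean summits, 2 to 5 genes with a shared segment and median positions of 0.548 to 0.606. Without SF3B3, an alternative chosen after seeing the data, the mean number of summits was 20.7, 1 gene held a segment and the overlap was 36.4%. The causes were not tested. No paired analysis was possible because no control list was analysed beside the 3 SNRPD2OE lists. The fold is already taken over the caller's background, but the library behind that background is not named. Without a control list, binding of SmD2 cannot be told apart from the level of a transcript in the recovered RNA.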
